A study of Mus musculus with 6 samples.

Results

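The insulin-like growth factor (IGF) system was described here through 10 genes in mouse inguinal fat cells differentiated in culture: the ligands Igf1 and Igf2, the receptors Igf1r and Igf2r, and the binding protein genes Igfbp2 to Igfbp7. The members were all probe sets that the platform annotation assigns to exactly 1 of these gene symbols, 28 of the 45101 probe sets in the table. A probe set is a group of short array probes that reads a stretch of a gene's transcripts. Messenger RNA was measured on 6 Affymetrix mouse 430 2.0 arrays, 3 of control cells and 3 of cells exposed for 4 days to rosiglitazone at 1 uM. This drug is a thiazolidinedione that activates the nuclear receptor PPARγ. The labels call the control cells non-activated and the treated cells beiging, a term for white fat cells that gain heat-producing features. They give no strain, sex, age or vehicle, and do not state whether replicates were grown separately. The p-values therefore reflect the spread among these 6 arrays, part or all of which may be technical.

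IGF-I and IGF-II are small secreted hormones related to insulin. Both act through the tyrosine kinase receptor encoded by Igf1r, while the receptor encoded by Igf2r carries lysosomal enzymes tagged with mannose 6-phosphate and removes IGF-II from the cell surface. The IGF binding proteins hold the ligands outside the cell and can either block or prolong their action. IGF-I and insulin drive the differentiation of fat cell precursors, and in fat tissue Igf1 is transcribed by fat cells, stromal cells and macrophages.

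Messenger RNA of 8 of the 9 member genes with a tested set was lower with rosiglitazone. Of the 28 probe sets, 22 were bright enough to test, and each of the 22 had a mean above the filter in both groups. Of these, 20 fell, 0 rose and 2 did not pass the test, where 30.7% of all tested probe sets fell and 21.2% rose (limma, adjusted p under 0.05 over 27022 probe sets). The 20 falls covered 8 of the 9 genes with a tested set: Igf1, Igf1r, Igf2r, Igfbp2, Igfbp3, Igfbp4, Igfbp6 and Igfbp7. Igfbp5 had no called set, and Igf2 had no set bright enough to test. The groups did not overlap, with every treated array below every control array, for 20 of the 22 sets, against 34.1% of all tested sets. The median log2 change was −1.0 over the 22 sets and −0.04 over all tested sets. Falls of at least 2-fold were called for 11 of the member sets, against 3.94% of all tested sets. They were the 4 Igf1 sets, the 5 tested Igfbp4 sets, 1458268_s_at of Igfbp3 and 1423585_at of Igfbp7. Sets of the same gene are not independent, so these counts of sets are not counts of genes. By the brightest set of each gene, only Igf1 and Igfbp4 fell by at least 2-fold, and the members' median was −0.85.

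**Figure D1:**
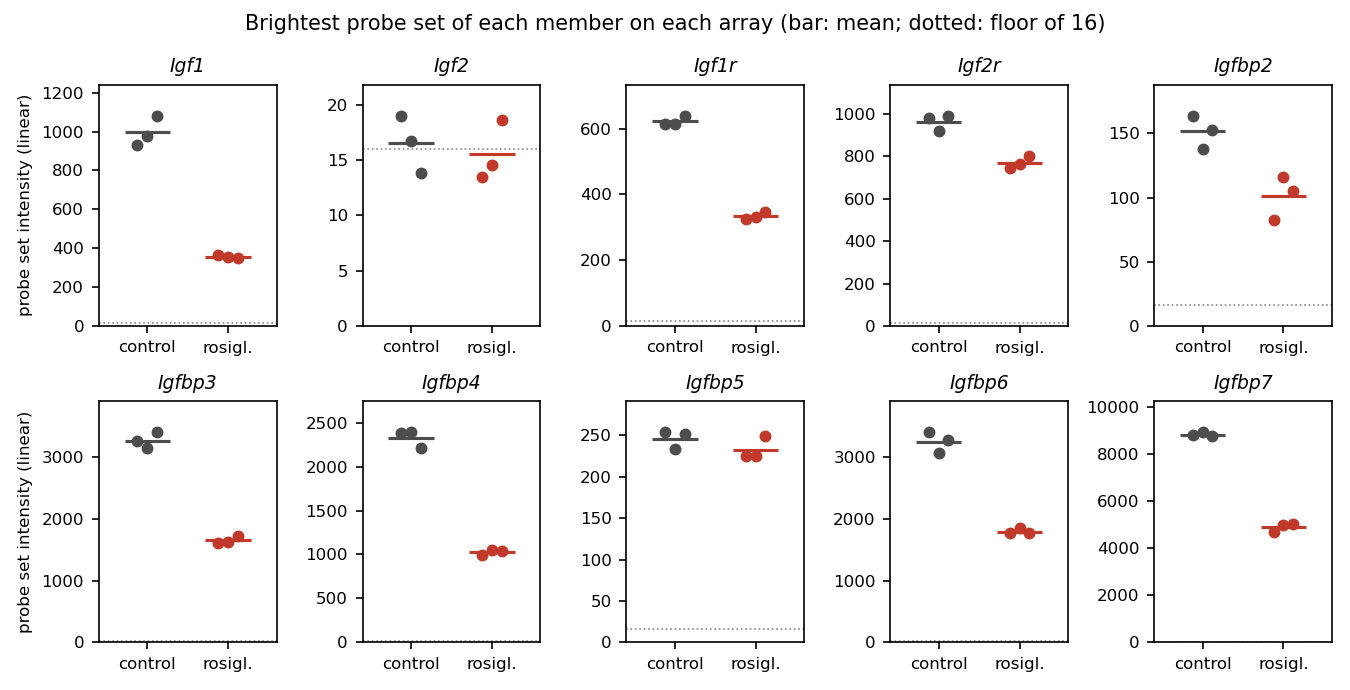
Intensity (linear scale, each axis starting at 0) of the brightest probe set of each member on the 3 control and the 3 rosiglitazone arrays; points are arrays, bars are means and the dotted line is the floor of 16. The groups are apart for 8 genes, Igfbp5 overlaps, and Igf2 lies around the floor in both groups.

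The core letters bound by many nuclear receptors stood in 4 of 14 member promoter windows and in 14.0% of all windows. A window is the 250 bases before an annotated transcription start. All 10 members were matched to RefSeq promoter windows (GRCm38.p6), 14 windows in all, since some genes have several starts. The letters of a PPAR response element, the core AGGTCA repeated in the same direction after a spacer of 1 base, on either strand, were found in 0 of the 14 windows and in 0.0335% of all 32851 windows. The core AGGTCA by itself was found on either strand in 4 of the 14 windows, before Igf1, Igf2, Igf1r and Igf2r. The TATA box letters TATAAA stood in 2 of the 14, before Igfbp4 and Igfbp6 (12.4% of all windows). The GC box letters GGGCGG stood in 6 of the 14, before Igf1r, Igf2, Igf2r, Igfbp2 and Igfbp7 (32.7% of all windows). These counts were not tested against the shares over all windows. The 30 bases around each core match are shown because they set the called genes Igf1, Igf1r and Igf2r beside Igf2, which was at or near the limit of detection. Capitals mark AGGTCA, or TGACCT where it lies on the other strand, and each stretch is read in the direction of transcription.
Igf1: ctcagggaagagAGGTCAgctgcctagagc
Igf2: gcaccagtggctTGACCTctctgtgtctat
Igf1r: cgtgctcggcttTGACCTtcagcgagccgg
Igf2r: ggcgggggcgggccgactcAGGTCAcgtga
The Igf1 stretch is chr10:87860938-87860967 on the plus strand, with its match beginning 161 bases before the start used, and lies inside the span of the annotated gene, which also has an earlier start. The Igf2 stretch is chr7:142667033-142667062 on the minus strand, with its match beginning 234 bases before a start. The Igf1r stretch is chr7:67952159-67952188 on the plus strand, with its match beginning 86 bases before the start, and the Igf2r stretch is chr17:12769707-12769736 on the minus strand, with its match beginning 11 bases before the start. The Igf2, Igf1r and Igf2r stretches lie outside the annotated gene spans. A match is a description of letters and says nothing of binding.

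Among the ligands, Igf1 fell on all 4 of its probe sets to between 30.2% and 35.7% of the control mean. The brightest, 1452014_a_at, read 932, 979 and 1079.9 on the control arrays and 365, 355 and 349 on the rosiglitazone arrays. Every treated array was far below the lowest control array, and the treated arrays lay closer together than the controls. The fall was 1.48 on the log2 scale (a change of −1.48, SE 0.06, 95% interval −1.60 to −1.36, limma adjusted p = 4.9e-12), a 2.79-fold lower level. On 1437401_at the 3 control values were 960.3, 945 and 969 and the treated values 304, 284 and 279, a log2 change of −1.73 (SE 0.05). The sets 1434413_at and 1419519_at both changed by −1.60, with treated means at 32.9% and 33.0% of the control means. Among all 12952 genes tested by their brightest set, 159 had a larger fall than Igf1. The 4 sets differed little in the size of the fall: the difference between the extremes, taken within each array, was 0.25 on the log2 scale (exact permutation p = 0.1, two-sided, the smallest that 3 against 3 arrays allow).

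Igf2, which encodes the ligand of fetal growth and is expressed from the paternal allele, was at or near 16, the floor to which lower intensities were set before testing. Its probe set 1448152_at read 19, 16.8 and 13.8 on the control arrays and 13.5, 14.6 and 18.7 on the treated arrays, and 1415931_at lay between 2.40 and 9.88 on all 6. The groups overlapped on both sets. At this signal a difference in Igf2 was not detectable.

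The receptor gene Igf1r fell, and its probe sets did not all fall by the same amount. Its brightest set, 1428967_at, read 615, 616 and 639 in control cells and 325, 332 and 348 with rosiglitazone. The groups were well apart, and the log2 change was −0.90 (SE 0.05, limma adjusted p = 6.8e-10). The set 1452982_at gave 371, 386 and 373 against 206, 201.4 and 189, a change of −0.92 (SE 0.06). The set 1426565_at gave 258, 239.7 and 239 against 208, 181 and 179.7, a smaller change of −0.38 (SE 0.08, limma adjusted p = 6.6e-04) that still left the groups apart. Within arrays, the change of 1426565_at differed from those of the other two by 0.52 and 0.55 on the log2 scale (exact permutation p = 0.1 for both, the smallest possible). These were among 24 pairs of tested sets of the same member gene, of which 13 had within-array differences that did not overlap between groups. The share of such pairs over all genes was not counted, so nothing is read from that number. Probe sets of a gene can read different transcript ends, and which transcripts each of these reads was not tested. The remaining sets, 1446303_at and 1452108_at, read 12.9 to 34.9 over the 6 arrays and were too dim to test.

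Igf2r, the mannose 6-phosphate and IGF-II receptor gene, had the smallest called fall among the members, and its sets gave almost the same change. On 1424111_at the control values of 982, 921 and 991 compared with treated values of 747, 763 and 801, a log2 change of −0.32 (SE 0.05, limma adjusted p = 1.9e-05). On 1424112_at the treated values of 734, 701 and 722 were all below the control values of 889, 924 and 885 (log2 change −0.32, SE 0.04). The groups did not overlap on either set, and the treated means were 79.9% of the control means on both. Both calls held when the arrays were centred on their median, where the changes were −0.20. Another probe set that the annotation gives to both Igf2r and the antisense transcript Airn was under the floor on all arrays and is not counted.

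The binding protein genes fell by different amounts. Igfbp4, whose product mostly restrains IGF action until the protease PAPP-A cleaves it, fell on 5 of its 6 probe sets, and the 6th was under the floor throughout. The brightest, 1437405_a_at, read 2380.3, 2387 and 2215 in control cells and 997, 1046 and 1044 with rosiglitazone. Each treated array was far below each control array, a log2 change of −1.18 (SE 0.04, limma adjusted p = 1.6e-12). The other called sets changed by between −1.06 and −1.44. The change of 1423756_s_at, from 1013, 1002 and 942 to 360.2, 363 and 368, exceeded that of the brightest set by 0.26 within arrays (exact permutation p = 0.1, the smallest possible).

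Igfbp3, which encodes the main IGF carrier of serum, fell to 50.6% and 49.4% of its control mean on its 2 sets. On 1423062_at the control values were 3257, 3139.9 and 3393 and the treated values 1607, 1619.7 and 1726, a log2 change of −0.98 (SE 0.04, limma adjusted p = 7.3e-12). The treated group lay wholly below the controls, and on 1458268_s_at the change was −1.02 (SE 0.06). Igfbp6, whose product prefers IGF-II, fell from 3394, 3059 and 3267 to 1763, 1847 and 1764 on its only set (log2 change −0.85, SE 0.04, limma adjusted p = 4.9e-11). Again no treated array reached the control range.

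Igfbp7 encodes a matrix-associated protein that binds IGFs only weakly. Its brightest set, 1423584_at, read 8808, 8923 and 8766 in control cells and 4713, 5001 and 5043 in treated cells, a log2 change of −0.85 (SE 0.03, limma adjusted p = 1.7e-12). A dimmer set, 1423585_at, fell by more, from 254, 269 and 260.5 to 132, 104.7 and 104.9 (log2 change −1.20, SE 0.09). The third set, 1437804_at, read 48.5, 82.7 and 73.9 against 79.9, 82.6 and 62.5. Its groups overlapped, and its log2 change of 0.16 (95% interval −0.22 to 0.54, limma adjusted p = 0.492) did not pass the test. The difference between the third set and the brightest was 1.00 on the log2 scale within arrays (exact permutation p = 0.1, the smallest possible).

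Igfbp2 and Igfbp5 are adjacent genes, with 0 annotated genes between them in the RefSeq order. Igfbp2, a binding protein of fetal tissues and fat cell precursors, fell from 164, 138 and 153 to 82.4, 116 and 105 on its only set (log2 change −0.59, SE 0.12, limma adjusted p = 6.5e-04). The groups did not overlap, but the treated arrays were spread more widely, in relation to their mean, than for the other called genes. The Igfbp2 call was lost without a filter on low values (adjusted p = 0.0540; over its alternatives the adjusted p lay between 3.2e-04 and 0.0540). Igfbp5, which encodes a binding protein that also attaches to matrix, read 253, 233 and 251 in control cells and 225, 225 and 249 with rosiglitazone on 1452114_s_at. The groups overlapped, and the log2 change was −0.08 (95% interval −0.23 to 0.07, limma adjusted p = 0.367), so a fall as large as that of Igfbp2 was outside the interval. The within-array difference of the 2 changes, Igfbp2 minus Igfbp5, was −0.51 (SE 0.15 over arrays, exact permutation p = 0.1, the smallest possible). The other Igfbp5 set had 1 array over the floor, at 17.7.

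**Figure D2:**
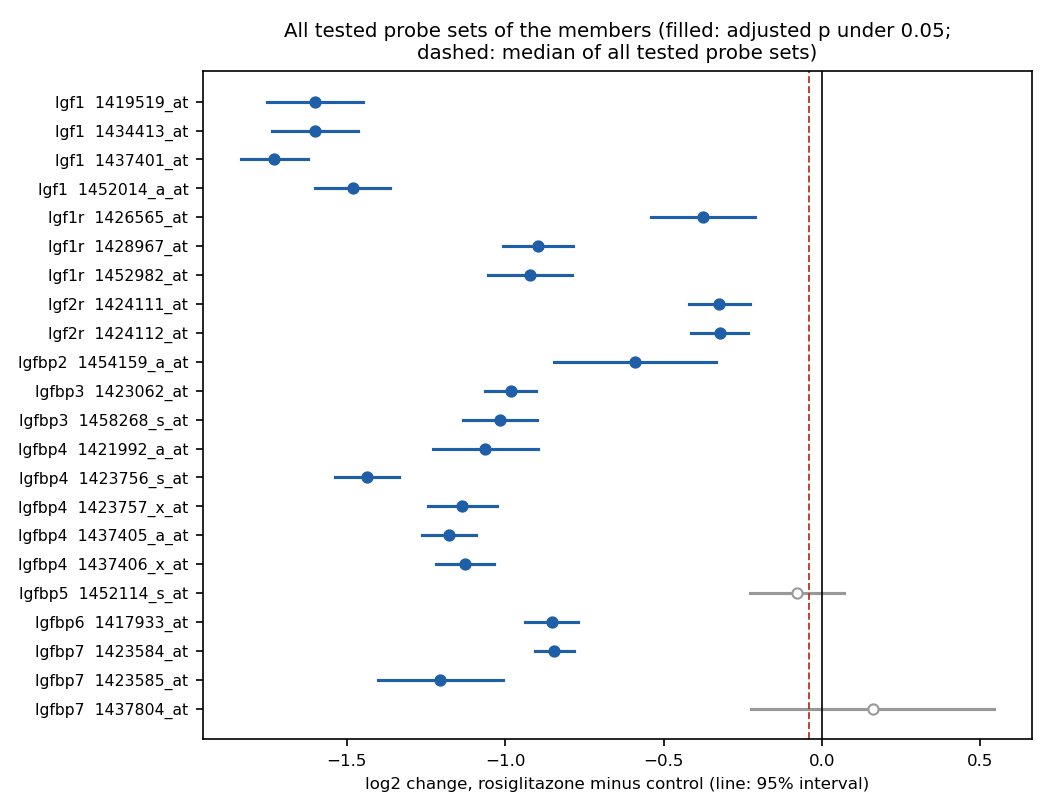
Log2 change (rosiglitazone minus control) with its 95% interval for the 22 tested probe sets; filled points passed the test, and the dashed line is the median of all tested sets, −0.04. The Igf1 sets lie between −1.48 and −1.73, the Igfbp4 sets between −1.06 and −1.44, the Igf2r sets at −0.32, and the open points are Igfbp5 and 1 set of Igfbp7.

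The scaling of the arrays moved all changes a little. Centring each array on its median raised the median change of all tested sets by 0.12 on the log2 scale, and all changes in the text are on the scale of the deposited table. After centring 21.1% of all sets fell, and after quantile normalization 24.9% fell, but the same number of member sets, 20 of 22, was called lower under both and 0 higher. Over these and 15 other settings, the change of the brightest Igf1 set stayed between −1.53 and −1.36. The sign of the uncalled Igfbp5 change depended on the scaling, at 0.05 after quantile normalization and 0.04 after median centring.

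**Figure D3:**
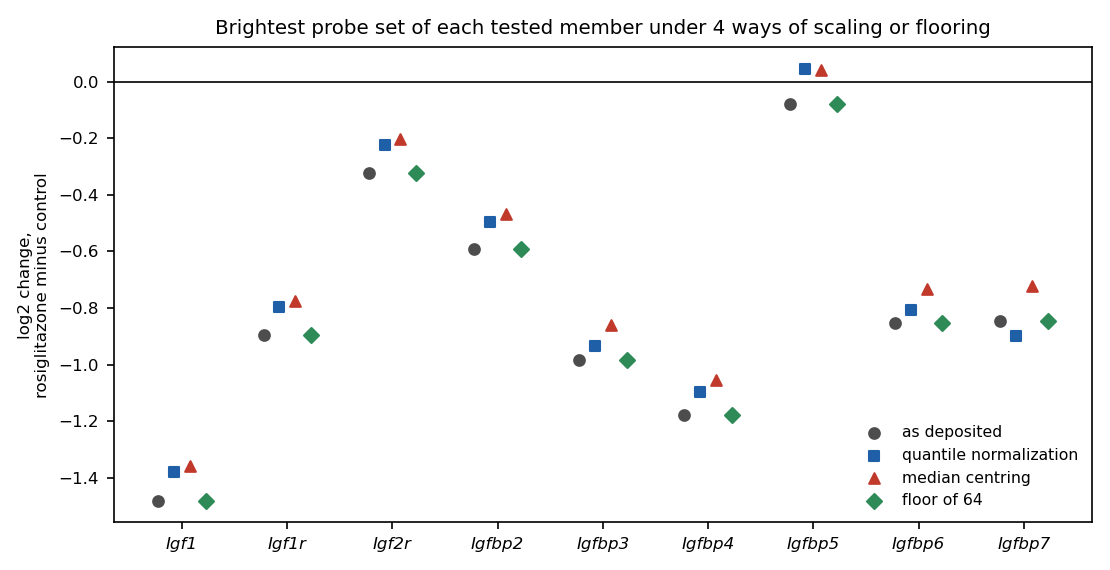
Log2 change of the brightest probe set of the 9 tested members as deposited, after quantile normalization, after median centring, and with a floor of 64 in place of 16. Igfbp5 changes sign, between −0.08 and 0.05, and the other 8 stay below 0 under all 4.

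Igfbp1, the remaining classical binding protein gene, known mainly from liver and not among the members, was under the floor on all 6 arrays, at 3.75 to 15.1. Igfals, which encodes the acid-labile subunit of the serum IGF complex, was too dim for the filter. It read 20.6, 21.3 and 25.2 in control cells and 10.4, 6.24 and 13.4 with rosiglitazone. All treated arrays were under the floor, which gives a bound of at least 1.39-fold lower. With control values this near the floor the difference was not tested.

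The other genes of the pathway were read from lists, each gene by its brightest probe set. On this reading 8 of the 9 tested members fell (median −0.85), where 35.3% of all 12952 genes fell and 23% rose (median −0.05). Of 9 tested genes of growth hormone signalling, the main inducer of Igf1 in liver and fat, 5 fell and 0 rose (median −0.47). After median centring 5 of them fell and 1 rose. The growth hormone receptor gene Ghr fell on all 3 of its probe sets, the brightest from 8245, 8236 and 8340.4 to 4835, 5161 and 5302 (log2 change −0.70, SE 0.03, limma adjusted p = 3.9e-11). Its groups were far apart. Socs2, a feedback inhibitor that growth hormone induces, fell by 1.75 on the log2 scale, Socs3, another feedback inhibitor, fell by 0.99, the kinase gene Jak2 fell by 0.73 and Stat5b, a transcription factor gene of the pathway, fell by 0.47. Of 7 tested genes that act on binding proteins, 5 fell and 1 rose (median −0.52), and 5 fell and 2 rose after median centring. Pappa, which encodes the protease of IGFBP-4, fell by 0.77 (SE 0.06), and Stc1 and Stc2, whose products inhibit that protease, fell (−0.67 and −0.49). Of the other Stc2 sets, 1419503_at also fell (−0.46) and 1445186_at did not pass the test (0.01, limma adjusted p = 0.946). The protease genes Htra1 and Adam9 also fell (−1.0 and −0.52), and Kazald1 rose by 0.27. Pappa2, the related protease gene, lay between 8.69 and 23.2 and was not tested. All 5 tested CCN genes fell (median −1.21), which encode matrix proteins with an IGF-binding-like domain: Ccn2 fell by 1.91, Ccn4 fell by 1.43, Ccn3 fell by 1.21 and Ccn1 fell by 1.02.

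Downstream of the receptors the genes did not move one way. Of 16 tested genes of receptor-proximal signalling 8 fell and 4 rose (median −0.11, and 0.01 after median centring). The insulin receptor gene Insr had a higher level with rosiglitazone, with 845, 864 and 887 in control cells and 1038, 1017 and 1029 in treated cells on its brightest set (log2 change 0.25, SE 0.04, limma adjusted p = 7.0e-05). All treated arrays were above all controls, while its other sets, both much dimmer, did not pass the test at changes of −0.16 and 0.37. Irs2, an adaptor gene shared by the insulin and IGF-I receptors, rose from 417, 438 and 409.8 to 668, 652 and 700.4 (log2 change 0.68, SE 0.05, limma adjusted p = 1.6e-08). Irs1, the other main adaptor gene, fell from 2473, 2451 and 2553 to 1925, 1966 and 2015 (log2 change −0.34, SE 0.03). No array of either group crossed into the other for Irs1 or Irs2. Grb14 and Grb10, which encode adaptors that inhibit these receptors, fell (log2 changes −1.07 and −0.56), as did the adaptor genes Shc1 (−0.65) and Gab1 (−0.63) and the phosphatase gene Ptpn1 (−0.33).

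In the list of PI3K, AKT, mTOR and FOXO genes, 9 of 26 tested members rose and 9 fell (median −0.02; 14 rose and 8 fell after median centring). The largest changes in size were falls: Pik3ip1, an inhibitor of PI3K, fell by 1.49, the transcription factor gene Foxo3 fell by 0.85, and the regulatory subunit genes Pik3r2 and Pik3r1 fell (−0.64 and −0.59). Of 13 tested genes of mannose 6-phosphate sorting, the other task of the Igf2r product, 7 fell and 0 rose by small amounts (median −0.19), and 3 fell and 1 rose after median centring. The lysosomal enzyme genes Gaa, Hexa and Ctsl fell (−0.32, −0.24 and −0.22), and the adaptor gene Gga2 fell by 0.21, a call not made after median centring (−0.09). Of 11 tested imprinted growth genes, the class to which Igf2 and Igf2r belong, 10 fell and 0 rose (median −0.97; 8 fell after median centring). The cell cycle inhibitor gene Cdkn1c fell by 1.65 and the transcription factor gene Plagl1 fell by 1.58. The noncoding RNA gene Meg3 fell by 1.57 and Dcn, which encodes the matrix proteoglycan decorin, fell by 1.52. The other tested Plagl1 set was not called (0.13, limma adjusted p = 0.58). Nor were the Meg3 sets at −0.07, −0.43, 0.07 and 0.12, while its other tested sets fell (−0.65 to −1.71). Of the genes for proteins that bind Igf2 messenger RNA only Igf2bp3 was tested. Its brightest set did not pass the test (log2 change 0.06, limma adjusted p = 0.622). A dimmer Igf2bp3 set was called lower, and the remaining tested sets of this gene were not called, so its sets disagreed.

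**Figure D4:**
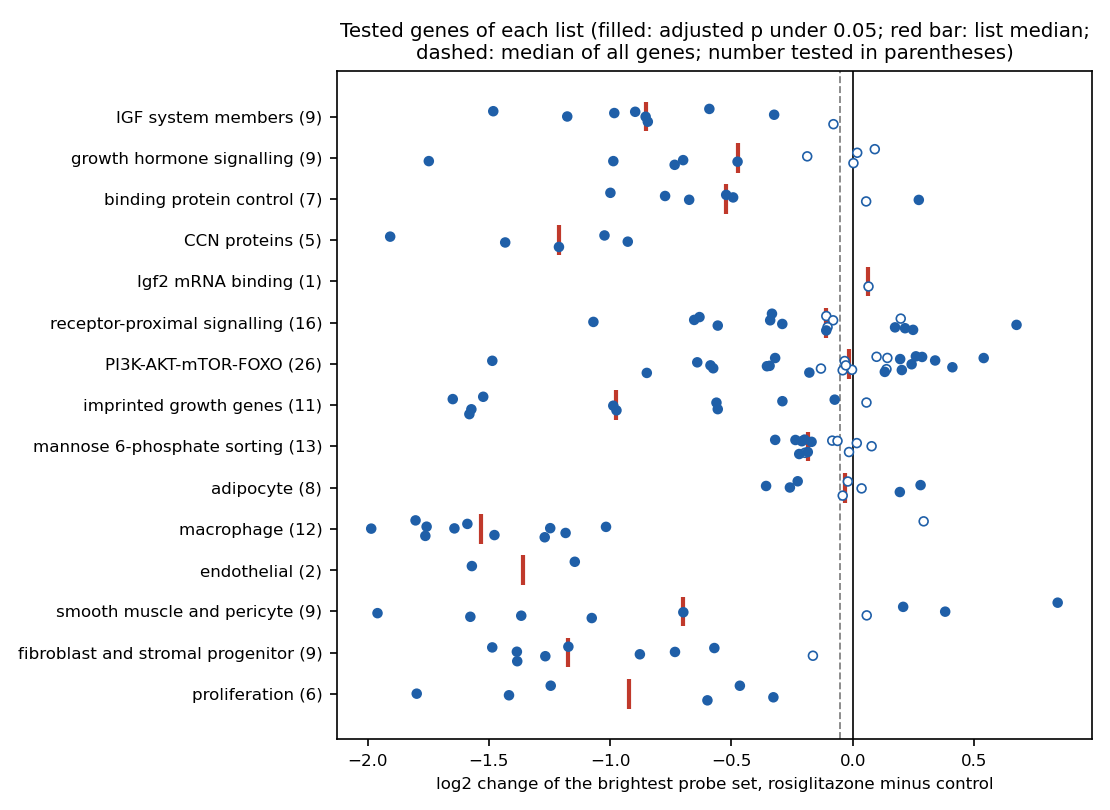
Log2 change (rosiglitazone minus control) of each tested gene by its brightest probe set, in the members, the pathway lists and 6 cell type lists; filled points passed the test, red bars are list medians, and the dashed line is the median of all genes, −0.05. The members' median is −0.85, the macrophage list's −1.53 and the adipocyte list's −0.03.

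Most tested macrophage, stromal and proliferation genes fell, as most members did, while smooth muscle and pericyte genes moved both ways. In bulk RNA fewer cells of a type and less RNA per cell cannot be told apart. The arrays carried the genes of fat cells: Adipoq, which encodes adiponectin, read 12828 ± 147 in control cells and 13158 ± 238 in treated cells (mean ± SD, n = 3 each), and Fabp4, the fat cell fatty acid binding protein gene, 17647 ± 326 and 17148 ± 245. Neither passed the test on these sets (log2 change 0.04 and −0.04). Fabp4 was called higher on other, dimmer sets (0.14 and 0.21, limma adjusted p = 0.0021 and 1.3e-05). Its remaining set was not called (limma adjusted p = 0.9). By the brightest sets, of 8 tested adipocyte genes 2 rose and 3 fell, with summed intensities of 74188 to 75460.5 and 75106 to 76376. The called changes largest in size were in Pparg, the gene of the drug's receptor (−0.36), the lipid droplet gene Cidec (0.28) and the glucose transporter gene Slc2a4 (−0.26). After median centring 5 of the adipocyte genes rose, Adipoq among them (0.16), and 3 fell. Ucp1, the gene of the heat-producing uncoupling protein of brown and beige fat, read 4.42 to 6.95 in control cells and 1485 to 1514 in treated cells.

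Of 12 tested macrophage markers 11 fell and 0 rose (median −1.53), led by C1qa (−1.99), Mrc1 (−1.80) and C1qb (−1.76). The summed intensity of the 14 markers on the array was 13149.6 to 14395 in control cells and 4451 to 4866 in treated cells, and Cd163 alone was under the floor on all arrays. Macrophages transcribe Igf1, and the part of these markers in the fall of Igf1 was not tested. Of 9 tested fibroblast and stromal progenitor genes 8 fell (median −1.17), with summed intensities of 36838 to 37713.5 and 20378 to 21268 and Dpp4 under the floor, led by Cd34 (−1.49), Col1a1 and Dpt (both −1.38). Stromal cells transcribe several of the binding protein genes, and the part of this list in their fall was likewise not tested.

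Of 9 smooth muscle and pericyte genes 5 fell, led by Myh11 (−1.96), Cnn1 (−1.58) and Mylk (−1.37), and 3 rose (median −0.70), with sums of 9805 to 10105 and 5766 to 5899. The rises were in Notch3 (0.85), Cspg4 (0.38) and Des (0.21, limma adjusted p = 0.0498), named after their values were seen. Cspg4 was also called higher on its other tested probe set. Rgs5, the remaining gene of the list, did not pass the test (0.06, limma adjusted p = 0.857). All 6 tested proliferation genes fell (median −0.92), with sums of 2926 to 3012 and 2017 to 2024, among them Mki67 (−1.80), Mcm5 (−1.42) and Top2a (−1.25). Endothelial genes were mostly dim: Tie1 and Emcn were under the floor on all arrays, and only Flt1 (−1.57) and Tek (−1.15) were tested and fell, with list sums of 421 to 441 and 210.3 to 226.5. Of 3 tested lymphocyte genes Ptprc, which macrophages also express, fell by 1.17, while Cd8a (0.01, limma adjusted p = 0.968) and Cd79b (0.50, limma adjusted p = 0.144) did not pass the test (list median 0.01). Cd3e and Cd79a were under the floor, and the sums were 457 to 465 and 290.1 to 324. Of 2 tested skeletal muscle genes, Ckm (0.37, limma adjusted p = 0.0509) and Acta1 (−0.09), 0 passed the test. The sums of that list were 270.4 to 296 and 265 to 336, and Tnnt3 was under the floor.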

How the data were processed

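The authors' deposited table holds 1 intensity per probe set and array on a linear scale. How background, summarization and scaling were done: not given in the sources used here. Groups follow the titles and the treatment characteristic, since the treatment protocol field names the drug for all 6 samples, controls included. Array medians lay between 44.46 and 46.66, and arrays of a group correlated at 0.993 to 0.995 (other group 0.971 to 0.973) on the log2 scale after the filter. The number of arrays limits the precision.

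Intensities under 16 were set to 16 and log2 was taken. The 64 control probe sets and the 40% with the lowest mean (up to 27.3) were left out. The comparison used limma 3.58.1 under R 4.3.3 (lmFit, eBayes with a variance trend, two-sided, Benjamini-Hochberg over all 27022 probe sets). The script was tested on simulated data. Probe sets with 1 symbol (34945) were named from the platform annotation, 932 with several and 9160 unlisted were not.

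The members, the 8 pathway and 8 cell type lists and the alternatives were chosen with earlier results of these data known. Named were all members, fixed pathway genes, up to 4 further called genes per pathway list and 3 per cell type list with the largest change. H19 and Igf2bp2 were not analysed here. A lower bound of a fold is the mean log2 of the brighter group against the floor. The alternatives were other filters, floors, scalings, variance models, array weights, probe set rules, the replicate number as a block, and each array left out.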

Additional observations from a re-analysis of the deposited data

How the results depend on the processing

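The count of member probe sets called lower was 20 under all alternatives read by probe set, each left-out array and the replicate block included (limma, 20 to 20 over the 6 left-out arrays), except for 19 without a filter on low values, which lost Igfbp2 (−0.59, adjusted p = 0.0540). With 1 set per gene, or the mean of a gene's sets, it was 8 genes in both. The count over all sets was 14015, between 12380 and 13550 with 1 array left out, and 7692 and 7191 genes with the last 2 rules, which test fewer features. Igfbp5, never called, turned from −0.08 to 0.047 after quantile normalization and 0.043 after median centring. Of 171 values of the brightest member sets under the alternatives, 168 kept direction and call. Of all calls, 59.2% were falls as deposited, 47.6% after quantile normalization and 39.5% after median centring. Deviations of same-numbered arrays correlated at −0.04, −0.02 and 0.02, so no pairing by number was visible in these values. They cannot show whether same-numbered arrays were grown or processed together, which the labels do not state. With the replicate block 13777 sets were called. Dim sets, Igf2 among them, carry no order at the floor.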
